A study of Mus musculus with 6 samples.

Results

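The control islets of the series are 3 of its 6 arrays, chosen by their labels as the samples of control genotype, and they are described here by the rank of each signal within its own array. Pancreatic islets were isolated from mice, and RNA was measured on an Affymetrix mouse array that carries 45101 probe sets, each a group of short probes that reads 1 transcript region. The disease model named for all samples is a conditional beta cell knockout of Vhlh made with RIP2-Cre, a Cre recombinase driven by the rat insulin promoter, and floxed Vhlh; the labels do not say which of these alleles the control mice carry. Control 01 came from 26-week-old mice recorded as male, control 02 from 20-week-old mice recorded as female and control 03 from 18-week-old mice recorded as male. The design text speaks of batches of islets, so 1 array stands for 1 batch, and the number of mice in a batch was not given. Each array has an age and a batch of its own, and recorded sex sets control 02 apart from the others, so with 1 array each their parts in a difference between arrays cannot be told apart. No genotypes are compared here.

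Islets are small endocrine organs scattered through the exocrine pancreas. Beta cells make insulin and islet amyloid polypeptide, alpha cells glucagon, delta cells somatostatin, PP cells pancreatic polypeptide and epsilon cells ghrelin. Beta cells take up glucose through a transporter and burn it in mitochondria, the rise in ATP closes a potassium channel, calcium enters, and secretory granules filled with processed prohormone fuse with the plasma membrane. The surrounding acinar cells make digestive enzymes, and isolation separates islets from them to a varying degree. RNA of a whole islet preparation mixes all these cells, so fewer cells of a type and less RNA per cell cannot be told apart.

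The signal is the MAS5 value, a linear brightness per probe set scaled alike on every array. Of the 45037 probe sets that are not array controls, 34945 carried exactly 1 gene symbol, and they stood for 18193 genes. The array medians over the 45037 probe sets were 111.0 on control 01, 107.5 on control 02 and 109.5 on control 03 signal units, and the highest signals were 55556, 60472 and 61834. A percentile below is the place of a signal among the 45037 probe sets of its array, 100 being the highest, averaged over the 3 arrays unless an array is named. Brightness also depends on how well the probes of a set bind, so a rank is a rank of array signal and orders no transcript against another.

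Control 03 stood apart from the other arrays. Its label records male mice, yet its sex-linked probe sets lay with those of control 02, the array recorded as female. Xist, the RNA that silences an X chromosome in female cells, read 163 on control 01, 11319 on control 02 and 16381 on control 03. Eif2s3y, a translation factor gene on the Y chromosome, read 1646, 9.92 and 2.77 in the same order. Kdm5d, a Y-linked histone demethylase gene, read 310 on control 01, 6.03 on control 02 and 34.1 on control 03. Uty, another Y-linked demethylase gene, read 335, 59.4 and 66.4. With these probe sets of the 4 genes, control 01 was on one side and controls 02 and 03 on the other. The other Kdm5d sets lay under the median of each array and were lowest on control 01. They read 5.66, 7.34 and 9.75, and 10.5, 27.8 and 43.6. Control 03 is therefore named below by its number alone, and no result is read by sex. On the array's own quality probes, the ratio of 3′ to 5′ signal for Actb was 3.83 on control 01, 3.34 on control 02 and 15.1 on control 03, and the same ratio for Gapdh was 5.71, 4.78 and 5.74. Control 03 was thus highest on both ratios, far above the others for Actb and narrowly above control 01 for Gapdh. Whether this RNA measure has a part in any result below was not tested, and results that rest on control 03 are given without it as well.

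**Figure D1:**
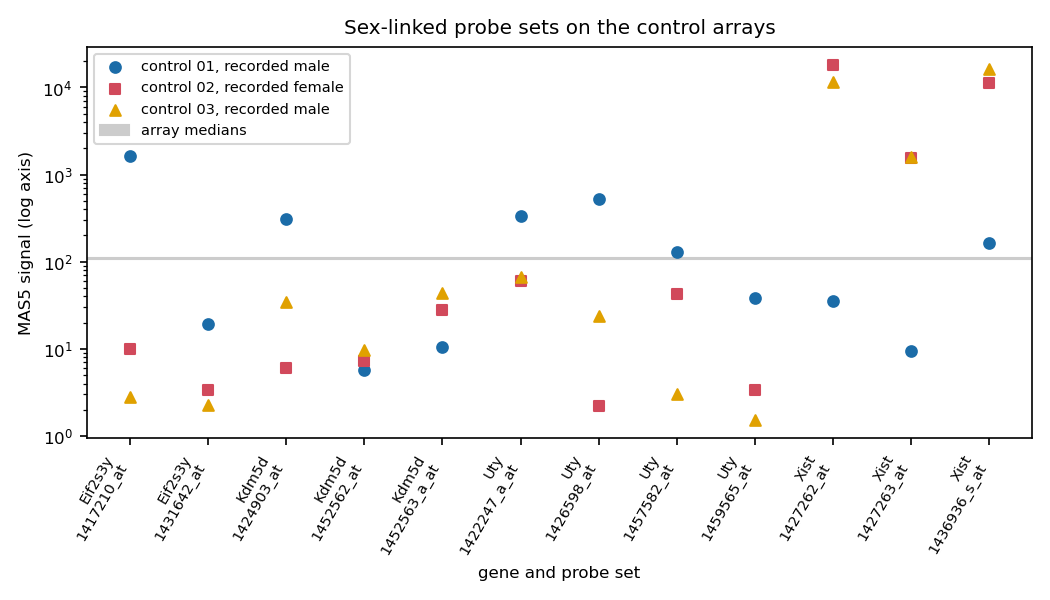
MAS5 signal (log axis) of every one-symbol probe set of Xist, Eif2s3y, Kdm5d and Uty on the 3 control arrays, with the span of the array medians as a grey band. The Xist probe sets were high on controls 02 and 03, and Eif2s3y at 1646 was high on control 01 alone.

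The highest-ranking probe sets were those of islet hormones, granule proteins, digestive enzymes and the translation machinery. Ordered by mean rank over the 3 arrays among the 34945 one-symbol probe sets, the first 30 stood for 24 genes, and 10 of the 30 were of the _x_at kind, whose probes can bind related transcripts. In all 29 neighbouring pairs of this order the signal ranges over the 3 arrays overlapped, so no single step of it is larger than the spread between arrays. The first place went to Hadh, a mitochondrial dehydrogenase of fatty acid oxidation that is strongly expressed in beta cells, with 49586 on control 01, 48804 on control 02 and 46924 on control 03. That probe set is of the _x_at kind, and another set of the same gene, which stands for Hadh below, read 18214, 12897 and 11821. A further _x_at set of Hadh read 1852, 1268 and 2105. Places 2 and 3 went to 2210010C04Rik, at 51979, 55469 and 32291, and to the elongation factor Eef1a1, at 43988, 47459 and 40767. The first of these was lowest on control 03, while the Eef1a1 values lay close together.

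Hormone and granule genes filled much of the same range. Iapp, islet amyloid polypeptide, had 3 probe sets among the first 30, of which the highest-ranking read 49923 on control 01, 54714 on control 02 and 31285 on control 03. Gcg, the glucagon precursor, read 41548, 44116 and 41423, with hardly any spread. Ttr, a thyroid hormone carrier made in alpha cells, also had 3 probe sets there, and its first read 43620, 45902 and 43465. The granins Chga, Scg2 and Chgb, acidic proteins of the granule core, and Cpe, the carboxypeptidase that trims prohormones, stood at places 9, 11, 19 and 12. Ero1b, an oxidase that forms disulfide bonds in the endoplasmic reticulum (ER), stood at place 24 with 33790, 29860 and 34240. The acinar proteases Cela3b and Prss2 stood at places 10 and 15, and both were lowest on control 03. Among the rest were 5 probe sets of 4 small-subunit ribosomal proteins (Rps29 with 2, then Rps4x, Rps7 and Rps3a1), 2 of the proton pump subunit Atp6ap2, and single ones of Ppy, Akr1a1, Tpt1, Peg3, Hspa8 and Mrfap1.

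**Figure D2:**
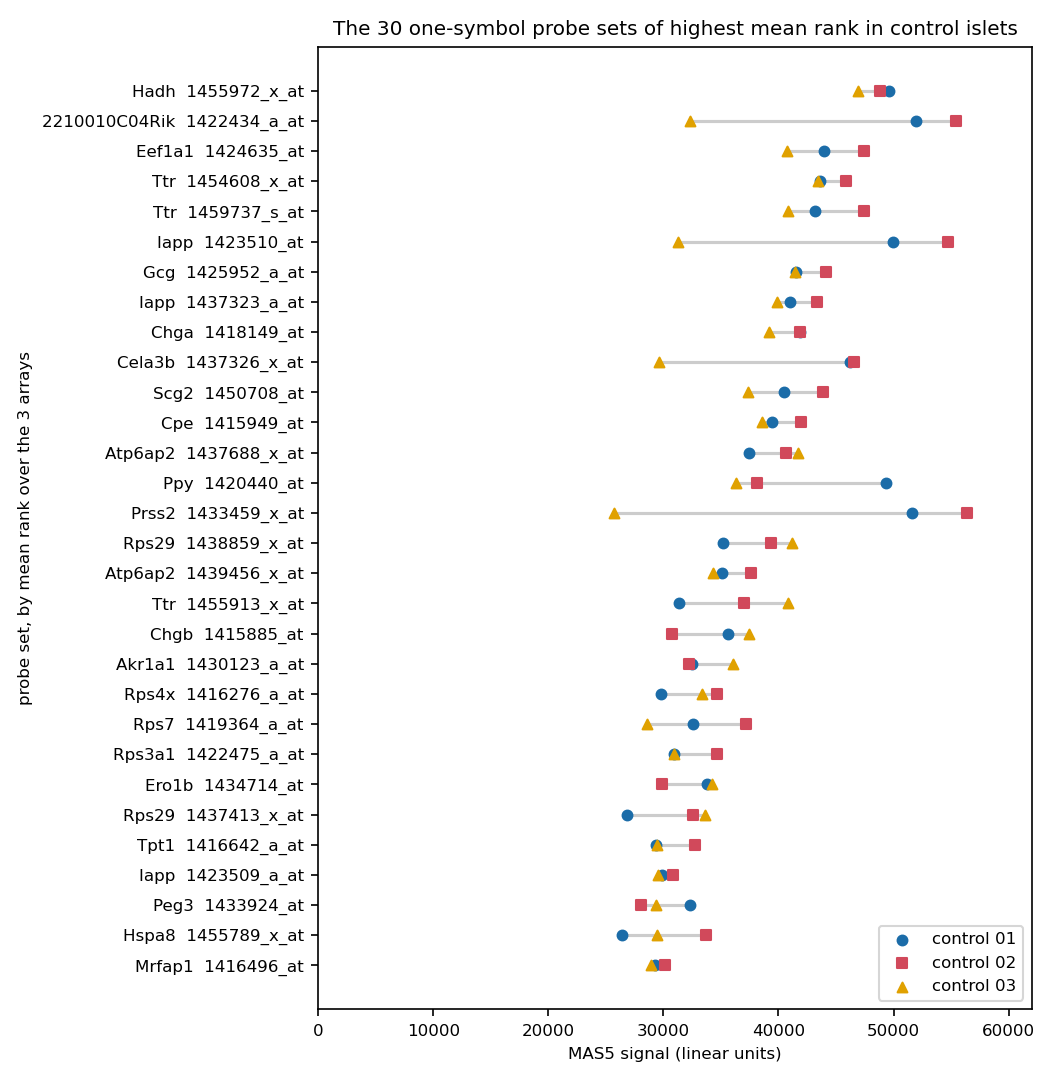
MAS5 signal (linear units) of the 30 one-symbol probe sets of highest mean rank, one row each, with a point per control array and a line over their range. Most rows are narrow, while 2210010C04Rik, one Iapp set, Cela3b and Prss2 are widest, with control 03 lowest.

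Of the 34945 one-symbol probe sets, 50 were among the first 100 on all 3 arrays, which is 0.143% of them, and they stood for 44 genes. In all 157 probe sets were among the first 100 on at least 1 array. Controls 01 and 02 shared 83 of their first 100, controls 01 and 03 shared 56, and controls 02 and 03 shared 54. Without control 03 the shared number is thus 83 in place of 50. On control 01 and control 02 the first 4 probe sets were of 2210010C04Rik, Prss2 (2 sets) and Iapp. On control 03 the first were an _x_at probe set of Fen1, a DNA repair nuclease, at 61834 against 17696 on control 01 and 13461 on control 02, and a probe set of Pik3cd, a lipid kinase of leukocytes, at 49877 against 11161 and 7771. The other Fen1 probe set read 302, 462 and 170 on controls 01, 02 and 03 and was lowest on control 03. The brightest of the other Pik3cd probe sets read 79.1, 64.2 and 109, under the median of each array. So these places belong to single probe sets and do not rank the genes. Fen1 and Pik3cd were named after their values were seen.

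The 5′ ends of 5 hormone and granin genes, all with signals in the top 1% of every array, are shown because they hold the letters of 1 of 2 textbook promoter elements, and they were chosen for that. Each window is the RefSeq sequence on assembly GRCm38.p6 from 250 bases before to 50 bases after the annotated start, 300 bases long. Capitals mark TATAAA, the letters of a TATA box, and TGACGTCA, the cAMP response element, on either strand (TTTATA is TATAAA read on the opposite strand). The windows are chr2:62483604-62483903 on the minus strand for Gcg, chr11:102101270-102101569 on the minus strand for Ppy, chr16:23890795-23891094 on the minus strand for Sst, chr1:79439977-79440276 on the minus strand for Scg2 and chr2:132781392-132781691 on the plus strand for Chgb.
Gcg: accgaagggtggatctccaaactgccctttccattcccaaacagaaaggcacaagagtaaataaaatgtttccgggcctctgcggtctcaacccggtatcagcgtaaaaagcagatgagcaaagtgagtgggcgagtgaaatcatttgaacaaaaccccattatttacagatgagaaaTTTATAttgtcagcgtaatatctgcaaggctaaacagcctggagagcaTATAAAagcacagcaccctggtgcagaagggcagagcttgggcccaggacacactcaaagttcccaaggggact
Ppy: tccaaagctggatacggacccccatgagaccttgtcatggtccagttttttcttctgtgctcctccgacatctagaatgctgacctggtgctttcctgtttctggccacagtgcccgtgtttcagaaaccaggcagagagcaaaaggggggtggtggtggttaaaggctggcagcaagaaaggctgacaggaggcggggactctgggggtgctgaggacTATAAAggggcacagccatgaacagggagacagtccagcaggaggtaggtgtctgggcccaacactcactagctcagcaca
Sst: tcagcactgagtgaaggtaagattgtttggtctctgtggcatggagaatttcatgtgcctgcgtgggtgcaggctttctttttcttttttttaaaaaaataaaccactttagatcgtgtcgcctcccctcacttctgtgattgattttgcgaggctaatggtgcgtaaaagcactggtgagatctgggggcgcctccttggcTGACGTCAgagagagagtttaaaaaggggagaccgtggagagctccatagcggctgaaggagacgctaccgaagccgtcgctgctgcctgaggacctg
Scg2: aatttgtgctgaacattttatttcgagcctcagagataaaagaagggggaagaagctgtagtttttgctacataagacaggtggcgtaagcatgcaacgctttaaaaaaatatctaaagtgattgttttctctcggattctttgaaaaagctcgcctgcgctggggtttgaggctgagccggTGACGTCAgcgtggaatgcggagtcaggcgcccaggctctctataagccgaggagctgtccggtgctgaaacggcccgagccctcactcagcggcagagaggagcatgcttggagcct
Chgb: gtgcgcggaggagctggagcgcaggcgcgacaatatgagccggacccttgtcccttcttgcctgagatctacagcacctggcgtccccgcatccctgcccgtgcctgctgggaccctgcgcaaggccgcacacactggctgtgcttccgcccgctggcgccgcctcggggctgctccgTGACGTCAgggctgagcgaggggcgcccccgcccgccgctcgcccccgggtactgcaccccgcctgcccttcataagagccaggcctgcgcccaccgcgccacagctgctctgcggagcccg

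TATAAA begins 24 bases before the start in Gcg and 31 bases before it in Ppy, and Gcg holds a second match in the opposite direction. TGACGTCA begins 48 bases before the start in Sst, 68 in Scg2 and 72 in Chgb. The granin gene Chga, also in the top 1% of every array, holds TATAAA too but is not shown. There the match begins 5 bases after the start. Over all 27025 genes with a window in the table, 15.7% held TATAAA and 2.03% held TGACGTCA in at least 1 window. Over the 14452 of these genes that were measured, the shares were 11.5% and 2.92%. Over the 113 genes with a window among those in the top 1% of every control array, the shares were 15.9% and 5.31%. Of the 6 measured islet hormone genes with a window, 2 held TATAAA and 1 held TGACGTCA, and of 15 genes of prohormone processing and granins, 2 held TATAAA and 3 held TGACGTCA (Pcsk1 in addition to Scg2 and Chgb). A match of letters is a description of the sequence and not a site shown to be bound.

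To see which classes of gene lay high or low, each gene was called above when its signal exceeded the median of the array on all 3 arrays and below when it was under it on all 3. Of the 18193 genes, 55.8% were above, 31% were below and 13.2% lay on both sides. The median percentile over all genes was 63.6. Probe sets with 1 symbol had medians of 142.8, 140.8 and 142.2 on controls 01, 02 and 03, above those of all non-control probe sets, and the brightest probe set then stood for each gene. By class, the members above were 96 of 106 measured secretory genes, 119 of 134 metabolic genes, 33 of 35 ribosomal proteins, 14 of 27 peptide hormones, 27 of 68 transcription factors and 93 of 141 markers of islet, acinar, duct, vessel, stroma, nerve and blood cells. The top 5% of every array held 5.85% of all genes, and among the lists it held 24 of 29 genes of ER folding, 26 of 35 ribosomal proteins, 14 of 24 acinar markers and none of the 32 transcription factors of other tissues. Markers of tissues that were not sampled were above in 7 of 56 cases and below in 41. Members of some lists stand in more than 1 of them, and a class is described by counts alone, with no test.

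**Figure D3:**
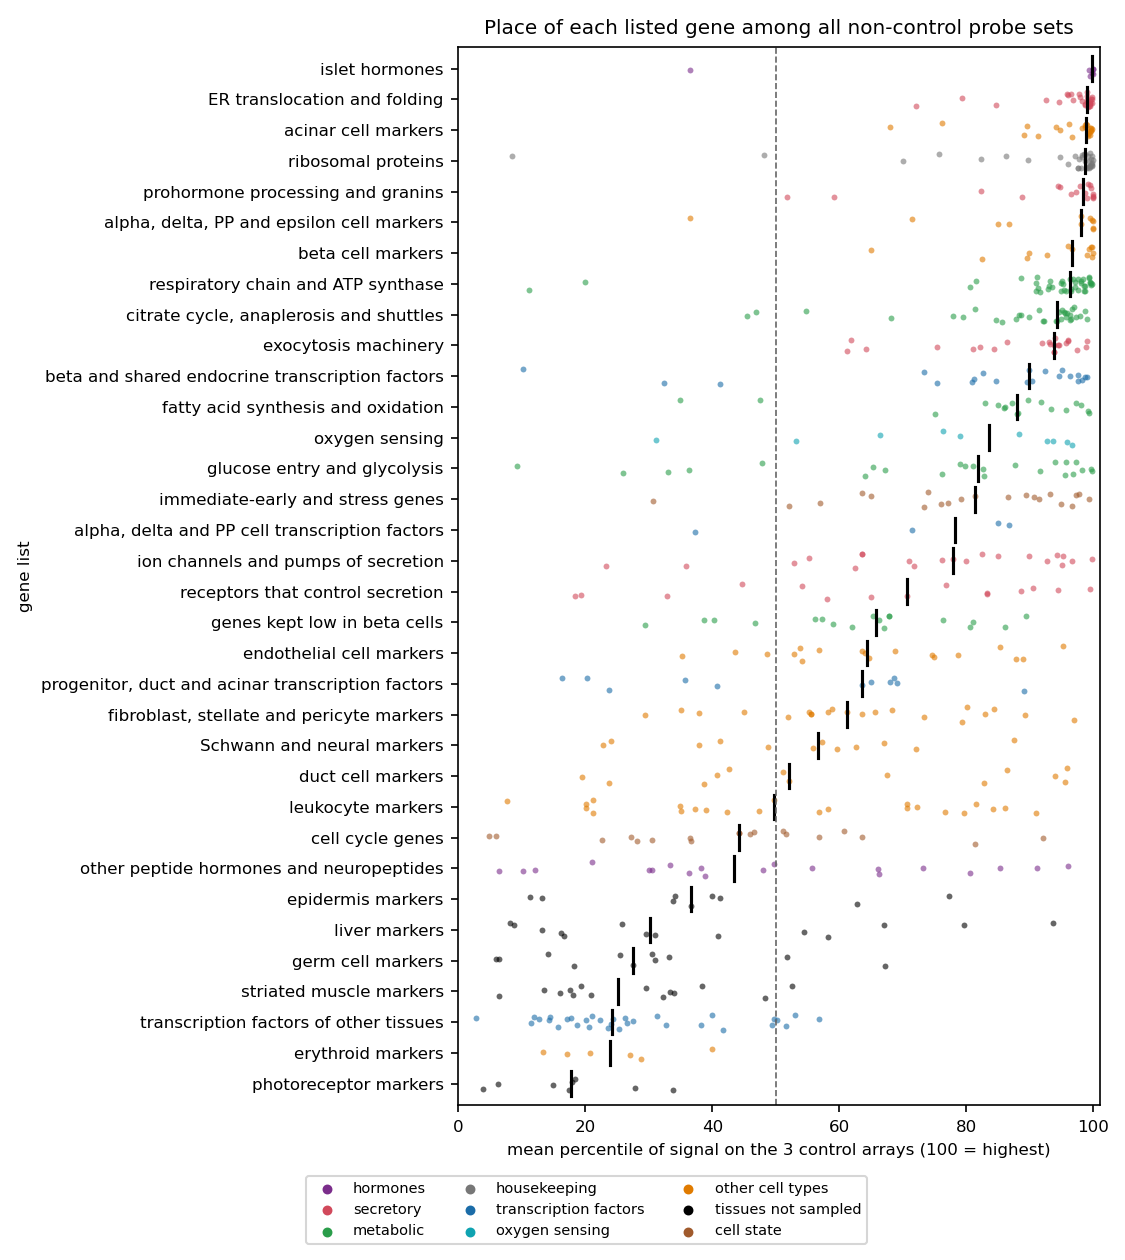
Each point is a measured gene of a list, placed by its mean percentile over the 3 control arrays (100 is the highest); black bars are list medians and the dashed line marks 50. Islet hormones, ER folding genes and acinar markers crowd the right edge, and photoreceptor, erythroid and other-tissue transcription factor lists lie on the left.

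Of the 7 measured islet hormone genes, 6 were above the median, all 6 of them in the top 1% of every array, a place that 0.803% of all genes held. Ppy, pancreatic polypeptide, read 49370 on control 01, 38111 on control 02 and 36319 on control 03. Pyy, peptide YY, read 32110, 39523 and 23270, lowest on control 03. Sst, somatostatin, read 18565, 21615 and 18157, and the ranges of these genes stayed far from the array medians on every array. Ins2, an insulin gene, was measured by an _x_at probe set at 14810, 17273 and 18232, and for Ins1 the annotation held no probe set of its own symbol alone, so it was not measured. Ghrl, the ghrelin precursor, was the exception at 55.7, 55.3 and 74.9, below each array's median.

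Of 20 other peptide hormones and neuropeptides, 8 were above (40%, beside 55.8% of all genes), 8 below and 4 on both sides. Their median percentile was 43.4. Ucn3, urocortin 3, a peptide of mature beta cells, read 7212 on control 01, 3699 on control 02 and 3359 on control 03. Vip, a vasodilator peptide of nerves, read 1954, 5583 and 976, and Tac1, the substance P precursor, 1177, 4438 and 396. Both nerve peptides were highest on control 02 and lowest on control 03. The peptides at the low end were Trh, Crh and Gip, of which Gip, the incretin of the upper gut, read 12.7, 14.1 and 10.6.

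The machinery that makes and releases hormone stood as a block above the median. Of 18 measured genes of prohormone processing and granins, 16 were above, none was below, and 7 were in the top 1% of each array. Chga read 41906 on control 01, 41878 on control 02 and 39132 on control 03, and Cpe 39422, 41964 and 38565. For these genes the spread was small beside their distance from the median. Pcsk1, the prohormone convertase that makes the first cut in proinsulin, read 7317, 5135 and 5412, and Slc30a8, the zinc transporter of insulin granules, 18691, 12650 and 10270. The convertase gene Pcsk2 was not measured for the same reason as Ins1. Vgf, at 107, 234 and 220, and Nnat, at 204, 41.7 and 241, were the members on both sides of the medians.

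All 29 measured genes of translocation and folding in the ER were above, with a median percentile of 99.1. The chaperone Hspa5 (BiP) read 18231 on control 01, 28916 on control 02 and 24986 on control 03. The lectin chaperone Canx read 23986, 23896 and 27921, and the disulfide isomerase P4hb 28760, 27211 and 21207. The lowest of the list were Pdia4, at 630, 285 and 306, and the stress gene Sdf2l1, at 809, 730 and 438, which still exceeded the medians on every array. All 23 measured genes of the exocytosis machinery were above as well, with a median percentile of 93.8. Among them Syt13, a synaptotagmin, read 14737, 11013 and 11377, and Snap25, a SNARE protein of granule fusion, 6520, 8201 and 4841. Stx1a, its partner in the plasma membrane, read 156, 223 and 229 and so lay only just above the medians.

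Of 21 ion channels and pumps of secretion, 18 were above and 2 below. Atp2a2, the calcium pump of the ER, read 26738 on control 01, 24849 on control 02 and 25160 on control 03. Abcc8 and Kcnj11, which together form the ATP-sensitive potassium channel, read 6511, 4809 and 3960, and 1131, 922 and 527. Both were highest on control 01 and lowest on control 03. Ryr2, the calcium release channel of heart muscle, read 10.9, 29.7 and 62, and Cacna1h, a T-type calcium channel, 62.2, 36.4 and 89.2, both below. Of 15 receptors that control secretion, 10 (66.7%, beside 55.8% of all genes) were above and 3 below. Ghr, the growth hormone receptor, read 18710, 18391 and 22086, Glp1r, the receptor of the incretin GLP-1, read 273, 267 and 195, and Drd2, a dopamine receptor, read 12.3, 38.9 and 19.2. Ghr and Glp1r were thus above on each array and Drd2 below.

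Genes of glucose handling and mitochondria mostly lay above the medians. Of 24 measured genes of glucose entry and glycolysis, 19 were above and 4 below. Slc2a2 (GLUT2), the glucose transporter of mouse beta cells, read 27379 on control 01, 16489 on control 02 and 20370 on control 03. G6pc2, a glucose-6-phosphatase subunit found in islets, read 34591, 33361 and 23945, and Aldoa, an aldolase, 9637, 9196 and 6445. The members below were Slc2a4, Pgam2, Hk3 and Ldhc, genes of muscle, leukocytes and testis, of which Ldhc read 5.92, 4.21 and 22.7.

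Of 34 genes of the citrate cycle, anaplerosis and shuttles, 32 were above and none below. Mdh2, mitochondrial malate dehydrogenase, read 10856 on control 01, 9496 on control 02 and 20187 on control 03, and Sdha, a subunit of succinate dehydrogenase, 10078, 12026 and 9207. Pdhx, a part of the pyruvate dehydrogenase complex, and Slc25a13, an aspartate-glutamate carrier, were on both sides. Of 42 genes of the respiratory chain and ATP synthase, 40 were above, with a median percentile of 96.4. Ndufa1, a complex I subunit, read 26679, 26794 and 29246, and Atp5a1, the alpha subunit of ATP synthase, 20245, 19522 and 17487. The 2 members below were Cox7a1, at 2.29, 59.5 and 30.7, and Cox8b, at 16.1, 5.59 and 14.4, both forms of cytochrome oxidase subunits found in heart and muscle.

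Of 18 genes of fatty acid synthesis and oxidation, 16 were above, led by Acly, which makes cytosolic acetyl-CoA, at 19183, 16051 and 12491. Ppara, a nuclear receptor of fatty acid oxidation, read 42.7, 99.7 and 40.5 and was below. A list of 18 genes that are kept low in adult beta cells was not low as a whole, with 14 above and 2 below and a median percentile of 65.8, near the 63.6 of all genes. Its best known members were Ldha, lactate dehydrogenase A, at 645 on control 01, 1328 on control 02 and 481 on control 03, and Slc16a1, a lactate and pyruvate transporter, at 53.6, 141 and 50.3. Ldha was above on every array, and Slc16a1 exceeded the median on control 02 alone. When the mean of all probe sets of a gene was used in place of the brightest, 8 of the 18 were above.

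Ribosomal proteins served as a class that all cells express. Of 35 measured, 33 were above, with a median percentile of 98.7. Rps29 read 35136 on control 01, 39390 on control 02 and 41198 on control 03. Rps16, at 13.6, 9.73 and 3.45, was below, and Rps20, at 82.4, 147 and 86.8, was on both sides. An _x_at probe set of Rps20, which the rule for choosing a probe set passed over, was among the first 100 on every array with 22308, 26716 and 29053. A low place of 1 probe set is therefore no measure of a gene's absence.

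Transcription factors divided by tissue. Of 21 beta and shared endocrine factors, 18 were above and 3 below, with a median percentile of 89.8, and of 32 factors of other tissues 1 was above and 23 below, with a median percentile of 24.2. Neurod1, a factor of endocrine differentiation and of insulin gene expression, read 13046 on control 01, 12372 on control 02 and 14852 on control 03. Isl1, a LIM homeodomain factor of all endocrine islet cells, read 9535, 10147 and 10012, and Insm1, a zinc finger factor of endocrine cells, 7146, 7720 and 9699. Pax6 read 5030, 6217 and 3093. These 4 genes lay far above the medians on each array.

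Pdx1, the homeodomain factor of pancreas formation and beta cell identity, read 1769 on control 01, 1857 on control 02 and 1307 on control 03. Nkx6-1 read 1665, 1478 and 1608, and Nkx2-2 1645, 1594 and 1969, ranges of 1.13-fold and 1.24-fold over the arrays. Pdx1 had a 1.42-fold range with the probe set given and a 2.07-fold range with its other set, at 629, 428 and 303. The range of Pax6 was 2.01-fold, so little spread was not common to all these factors. The members below were Hnf4g, Foxa1 and Pax4, and of these Pax4, a factor of islet development, read 6.77, 17.5 and 8.23. Of the 4 measured factors of alpha, delta and PP cells, Hhex, Irx1 and Irx2 were above, and Hhex, a factor of delta cells, read 1171, 1686 and 849.

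Of 11 factors of progenitors, ducts and acini, 5 (45.5%, beside 55.8% of all genes) were above and 3 below. Neurog3, which starts the endocrine program in the embryo, read 217, 259 and 192 with its brighter probe set and 2.72, 4.36 and 11.3 with the other, so its side depends on the probe set. Ptf1a, the acinar factor, read 494 on control 01, 934 on control 02 and 83.7 on control 03, above the median on controls 01 and 02 alone. Among the factors of other tissues Nanog, of pluripotent cells, read 3.67, 4.88 and 2.02, and Sox2 1.4, 47.3 and 4.04. Neurog1, a factor of sensory neurons, was the 1 above, at 122, 119 and 258, and its mean percentile of 56.8 became 25.9 when its probe sets were averaged.

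The oxygen-sensing genes, which the knocked-out gene of the series belongs to, were mostly above in these control islets, with 8 of 10 above and 1 below. Vhl, the ubiquitin ligase subunit that marks hypoxia-inducible factors for degradation, read 457 on control 01, 639 on control 02 and 839 on control 03 with its brighter probe set. Its other probe set read 100.4, 122 and 28.1, on both sides of the medians. Hif1a read 4473, 5429 and 4812 and Epas1 (HIF-2 alpha) 3669, 3865 and 4941, so both oxygen-regulated subunits were above on each array. Among the prolyl hydroxylases that sense oxygen, Egln1 read 2660, 2485 and 1942 and Egln2 2822, 2543 and 2747, while Egln3 was below at 43.2, 52.9 and 49.

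The label of islet tissue was set against markers of the cell types that an islet preparation can hold. All 13 measured beta cell markers were above, with a median percentile of 96.6, and so were 10 of 11 markers of alpha, delta, PP and epsilon cells, with a median percentile of 98.1. Acinar markers were as high, with 23 of 24 above, none below and a median percentile of 98.8. Cela1, an elastase, read 44382 on control 01, 47834 on control 02 and 16160 on control 03. Cpb1, a carboxypeptidase, read 37380, 39650 and 14221, Ctrl, a chymotrypsin-like protease, 34576, 36423 and 14984, and Clps, colipase, 38514, 44921 and 12644. Control 03 was lowest for each of these enzymes. Ptf1a alone lay on both sides, and without control 03 all 24 were above.

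Duct markers were divided, with 6 of 13 (46.2%) above, 1 below and 6 on both sides. Krt7, a keratin, read 5104, 6056 and 2594, and Krt19, another duct keratin, 137 on control 01, 193 on control 02 and 13 on control 03. Cftr, the chloride channel of duct cells, was below at 13.6, 33.5 and 28. Of 18 endothelial markers 13 were above and 2 below, a share of 13 in 18 beside 55.8% of all genes. Kdr (VEGF receptor 2) read 3652, 3767 and 3297, and Pecam1 131, 165 and 93.6. Kdr was far above on every array, and Pecam1 was above on controls 01 and 02 alone.

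Of 21 fibroblast, stellate and pericyte markers, 13 were above, 1 below and 7 on both sides. The share above was 61.9%, near the 55.8% of all genes. Rgs5, a pericyte gene, read 5793 on control 01, 5195 on control 02 and 5084 on control 03, while Col1a1, a collagen of fibroblasts, read 62.8, 198 and 155 and Pdgfra, a receptor of mesenchymal cells, 32.2, 64.1 and 39.5. Of 12 Schwann and neural markers, 5 (41.7%) were above, a share under that of all genes. Of 23 leukocyte markers, 10 (43.5%) were above, again under the share of all genes, and 7 below. The macrophage receptor Csf1r read 1490, 1420 and 3609 and the pan-leukocyte gene Ptprc 313, 312 and 424, both above, whereas the T cell genes Cd3d, Cd3e and Cd4 were below, Cd3d at 9.74, 8.57 and 4.92. Of 6 erythroid markers none was above and 4 were below.

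Lists of tissues outside the preparation lay on the low side. None of 14 striated muscle markers and none of 8 photoreceptor markers was above, with 11 and 7 below. Of 14 liver markers, 4 were above and 9 below; Ambp, a plasma protein precursor, read 2456 on control 01, 2882 on control 02 and 2774 on control 03, and Alb, albumin, 147, 181 and 162. Of 11 germ cell markers, 1 was above and 8 below, and of 9 epidermis markers, 2 were above and 6 below. The 1 germ cell gene above was Prm1, a sperm protamine, at 231, 316 and 291, while Prm2, its partner in sperm, read 11, 21.4 and 15.1.

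Of 19 cell cycle genes, 4 were above and 8 below, with a median percentile of 44.3. Pcna, the sliding clamp of DNA replication, read 1634 on control 01, 2680 on control 02 and 2315 on control 03, and Tk1, the thymidine kinase of dividing cells, 5.01, 4.26 and 6.6. Of 21 immediate-early and stress genes, which are switched on within minutes of a stimulus or a stress such as tissue handling, 18 were above and 1 below. Fos read 10498, 18257 and 23617, Egr1 4390, 6127 and 17060 and the heat shock gene Hspa1b 11776, 18071 and 2513. Fos and Egr1 were highest and Hspa1b lowest on control 03.

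The spread between the 3 arrays depended on signal. Over the 18193 genes, Spearman's rank correlation was 0.952 between controls 01 and 02, 0.934 between controls 01 and 03 and 0.926 between controls 02 and 03; these are correlations across genes, which are not independent, and arrays share the probes. For the 10147 genes above the median, the middle gene had a log2 range of 0.63 over the 3 arrays, a 1.54-fold range, and 77.6% of them stayed within a factor of 2. Between controls 01 and 02 the middle gene above the median differed 1.20-fold, between controls 01 and 03 1.35-fold and between controls 02 and 03 1.38-fold. The median log2 range was 2.37 in the lowest of 10 equal groups of genes by signal and 0.56 in the highest. Over all genes 44.8% had a log2 range over 1, and 16.2% were more than 1 log2 unit above or below both other arrays on control 03. That last share was counted for control 03 alone, so it does not show how controls 01 and 02 would compare.

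**Figure D4:**
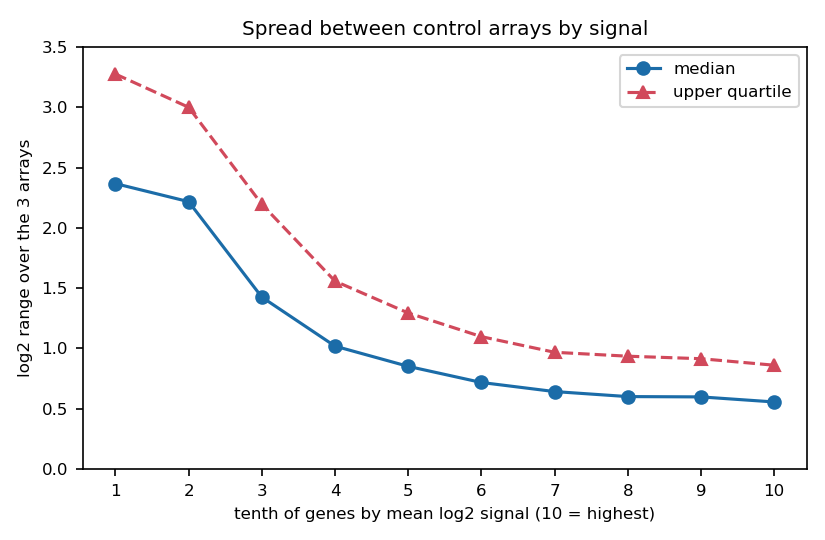
Median (circles) and upper quartile (triangles) of the log2 range over the 3 control arrays in each of 10 equal groups of the 18193 genes by mean log2 signal. The median range is 2.37 in the lowest group and 0.56 in the highest.

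By the range of list means over the arrays, the exocytosis genes varied least of the lists and the acinar markers most. The mean log2 signal of the exocytosis list was 10.89 on control 01, 10.87 on control 02 and 10.85 on control 03, and that of the acinar list 13.94, 14.55 and 11.59. Gene by gene the order was another, as the median log2 range was 0.57 for exocytosis genes, 0.40 for ER folding genes and 0.44 for islet hormones, against 2.90 for acinar markers and 6.17 for the 4 sex-linked genes. The acinar means thus spanned 2.96 log2 units with control 03 and 0.61 between controls 01 and 02. Of the 24 acinar genes 23 were lowest on control 03, where 37.0% of all genes were lowest, and Bhlha15, a factor of secretory cells, was the exception at 1119, 1697 and 1827. Sets of hormones and granins differed far less, as the islet hormone means were 13.62, 13.70 and 13.49. Lower means on control 03 than on both other arrays were also found for duct markers, at 8.20, 8.45 and 7.64, for Schwann and neural markers, at 7.19, 7.63 and 6.58, for fatty acid genes, at 10.67, 10.90 and 10.28, and, by a smaller margin, for beta cell markers, at 12.74, 12.40 and 12.24.

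Fibroblast markers were lowest on control 01, with means of 7.63, 8.38 and 8.07, as were immediate-early and stress genes, with 9.58, 10.30 and 9.91. In both of these lists 13 of 21 genes were lowest on control 01, where 29.6% of all genes were lowest. The photoreceptor list, with means of 3.62, 3.42 and 4.98, and the erythroid list, with 5.40, 4.75 and 4.05, varied too, but their signals lay in the range where the spread between arrays was widest.

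**Figure D5:**
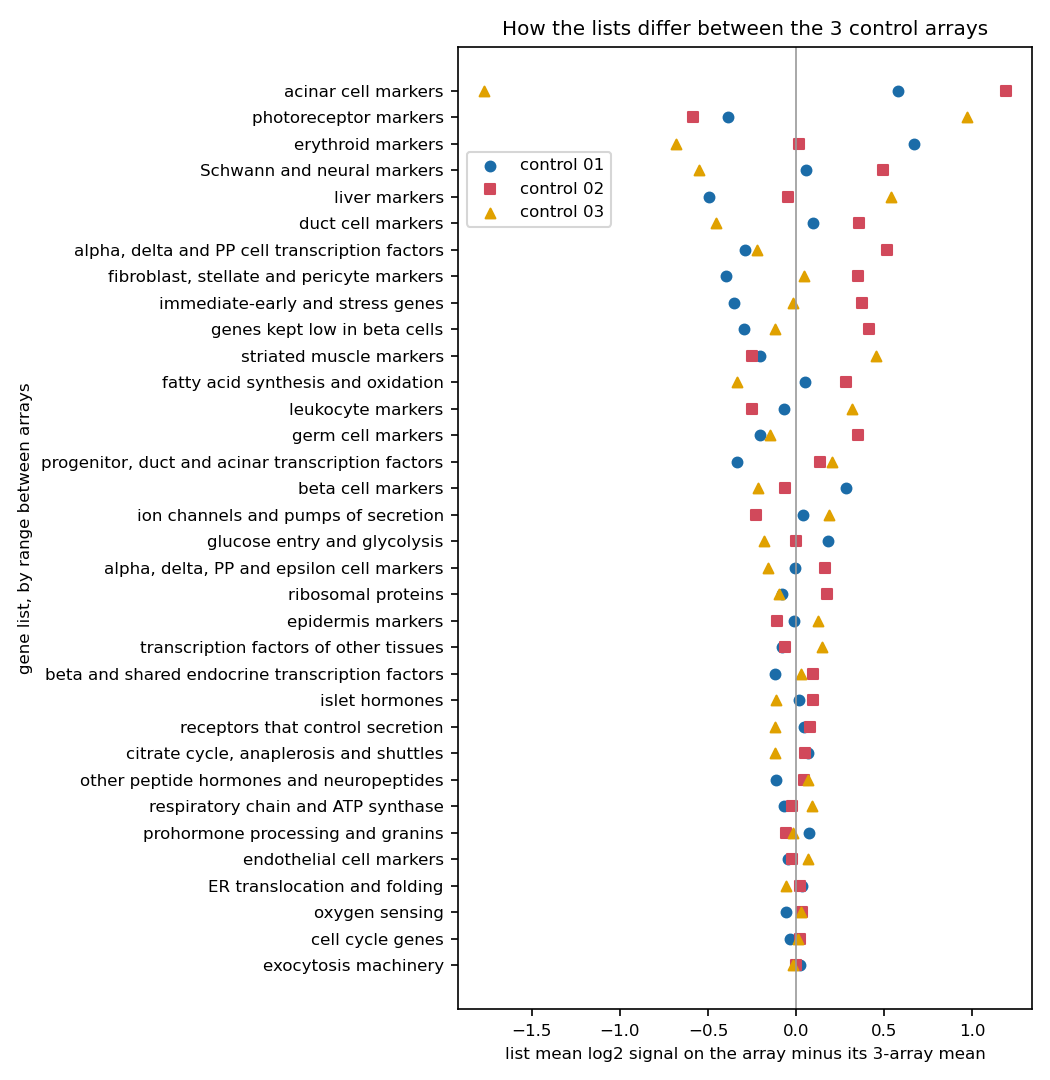
Mean log2 signal of each gene list on each control array, minus the mean of that list over the 3 arrays, ordered by range. The acinar markers span 2.96 log2 units with control 03 lowest, while exocytosis genes at the bottom coincide on the 3 arrays.

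The genes with the largest log2 range among those above the median on at least 1 array were H2-Q2, Eif2s3y, Reg3b, Itih4, Reg2, Xist, Stac2, Sh2d4a, Lcn2 and Grp. H2-Q2, a class I histocompatibility gene, read 4.69 on control 01, 1283 on control 02 and 6044 on control 03. Probe sets of related genes went both ways. An _x_at set of H2-D1 read 7411, 4281 and 3.84 in the same order, and an _x_at set of H2-K1 read 1933, 10524 and 5885. Both were picked after their values were seen, and other sets of the same genes read otherwise. Another _x_at set of H2-D1 read 10215, 8535 and 5424, and another of H2-K1 8802, 6384 and 2725. A single set therefore does not stand for either gene. Reg2 and Reg3b, secreted regenerating proteins of the pancreas, read 5457, 37501 and 298, and 445, 16326 and 44.7, both highest on control 02 and lowest on control 03 as the acinar list was. Grp, a neuropeptide, read 681, 1207 and 17.4. Each of these values rests on 1 array.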

How the data were processed

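RNA of 3 control islet batches was measured on 1 array each; the other genotype's arrays were not used here. Per the labels' protocols, 30 ng of total RNA was reverse-transcribed and amplified with a 2-cycle kit. The values are the authors' deposited MAS5 signals, a linear intensity for each probe set. The submitters' processing notes name GCOS 1.4 and MAS5 for them. All 3 arrays had a 2% trimmed mean of 500.003, a global scaling that was kept as it was. Detection calls were not used here, so above the median does not mean detected.

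Of 45101 probe sets, 64 controls were left out, and the platform annotation gave 34945 of the rest 1 symbol, 932 several and 9160 none. Entrez identifiers matched 34741 of them to RefSeq genes (GRCm38.p6) and changed 0 symbols. A gene was represented by the probe set of highest mean log2 signal over the 3 control arrays, passing over _x_at sets unless the gene had no other (100 genes). Of 670 listed genes, 594 were measured. The median of the 45037 non-control probe sets split above from below, and ranks were taken among the 34945. No test was run, since a single group is described; the scripts were checked on simulated data. The number of arrays limits the precision. Tools were Python 3.11.15, pandas 2.3.3, numpy 2.4.6, scipy 1.17.1 and matplotlib 3.10.9.

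The control arrays and the 35 gene lists were chosen with earlier results of these data known. Named genes are the 30 first probe sets and up to 4 highest and 3 lowest of each list. Textbook islet, oxygen-sensing, other cell type and sex-linked genes were named too. So were the 10 of largest log2 range among genes above the median on at least 1 array. Outside these rules, Fen1, Pik3cd, Slc2a4, H2-D1, H2-K1 and the probe sets with several symbols were named after their values were seen. Alternatives tried were other probe set rules, other splits, other top lists, quantile normalization, a pseudocount of 50 and leaving out each array.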

Additional observations from a re-analysis of the deposited data

How the results depend on the processing

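Of 255 named genes, 253 kept their side (above, below or both) with _x_at probe sets treated like others, 239 with the median of one-symbol probe sets, 229 with probe sets of a gene averaged, 214 when 2 of 3 arrays sufficed, 187 with the 75th percentile as the split, and 240, 242 and 242 without control 01, 02 or 03. In 159 of 315 listed genes with several probe sets, and 3579 of 9010 genes in all (39.7%), the probe sets shared 1 call. That call was above, below or both sides, so the choice of probe set matters. Averaging moved the mean percentile of 90 of the 255 by more than its SD over the arrays without changing sides outright. Averaging a gene's probe sets left the genes above at 3 for Schwann and neural markers, 2 for cell cycle, 1 for epidermis, 8 for genes kept low in beta cells, 0 for germ cell markers, 3 for progenitor, duct and acinar factors, 0 for sex-linked genes and 0 for factors of other tissues. It also moved the mean percentile below the median for Arnt (41.7), Cdc20 (34.5), Lor (36.2), Neurog1 (25.9), Neurog3 (24.7), Prm1 (15.8) and Sox10 (34.6), while Sox17 reached 62.2 with _x_at sets treated like others. With the median of one-symbol probe sets, the counts above were 3 for Schwann and neural markers, 1 for epidermis, 5 for other peptide hormones and 0 for factors of other tissues. With the 75th percentile, 6058 genes were above and 10389 below, and the counts above were 1 for Schwann, 2 for cell cycle, 5 for endothelial, 0 for epidermis, 3 for fibroblast, 4 for kept-low, 0 for germ cell, 11 for immediate-early, 10 for channel, 4 for leukocyte, 2 for liver, 3 for other peptide, 5 for oxygen-sensing, 1 for progenitor, 6 for receptor, 0 for sex-linked and 0 for other-tissue factor lists; a stricter split by construction holds fewer genes. When 2 of 3 arrays sufficed, the counts above were 9 for cell cycle, 2 for germ cell, 1 for muscle and 4 for other-tissue factor lists.

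Leaving out each array in turn gave 54 to 83 shared probe sets among the first 100 (83 without control 03), a median log2 range of 0.26 to 0.46, smaller by construction with 2 arrays, and an acinar range of 0.61 to 2.96 log2 units (0.61 without control 03). Counts above were 2 each time for other-tissue factors, 0 to 1 for muscle and 1 to 2 for germ cell markers. Quantile normalization and the pseudocount were run on 2 results each, the spread and the acinar range, and the other top lists on the shared count alone, and these stayed within their margins. No paired analysis was possible because a single group is described and no result comes from a test. The spread was widest for signals near the bottom of the range, for which no detection call was used here.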

Other observations

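Among the first 100 of all 45037 non-control probe sets by mean rank, 60 carried 1 symbol, 30 carried several and 10 carried none, so the named order above leaves out bright probe sets. The brightest of those with several symbols, annotated to Rpl23 and related loci, read 55556 on control 01, 60472 on control 02 and 55510 on control 03. A probe set annotated to the pancreatic amylases Amy2a1 to Amy2a5 read 54110, 56374 and 50946, and its signal hardly varied between the arrays. It ranked 2, 3 and 3 among all non-control probe sets. The salivary-type amylase gene Amy1 read 923, 2737 and 113. For the acinar gene Cela3b the range over the arrays was 1.57-fold with its brightest probe set and 18.2-fold with another. A narrow range of 1 very bright set therefore does not show that the RNA was constant. The probe sets of this paragraph were chosen after their values were seen.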
